A study of Mus musculus with 21 samples.

Results

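The transcriptional response of wild-type mouse bone marrow-derived macrophages to IL-33 was measured by bulk RNA sequencing of 6 of the 21 libraries in the series, 3 without cytokine and 3 with IL-33. All 6 came from C57BL/6 bone marrow that was grown into macrophages over 5 days with M-CSF-conditioned medium, followed by 36 h of cytokine. The members of the comparison were the 14473 genes, of 47069 in the count table, that passed a filter on low counts. For comparison, 3 wild-type libraries with IL-4, 6 libraries labelled C57BL/6:ST2-/- (3 without cytokine, 3 with IL-33; called ST2KO-labelled below) and 6 libraries labelled C57BL/6:Cx3cr1CRExGata3fl/fl (3 and 3; called floxed-labelled below) were used. In the last genotype the Cre gene is named for Cx3cr1, so deletion depends on the cells that use that promoter. The 6 libraries held 35995216 to 41682400 counts. The labels do not say whether the 3 libraries of a group came from separate mice, pooled mice or separate dishes, so p-values reflect library-to-library spread alone, and that spread may be technical.

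IL-33 is an alarmin of the IL-1 family that is released from damaged barrier and stromal cells. It binds ST2, the product of Il1rl1, which pairs with the shared accessory chain Il1rap and recruits Myd88, IRAK kinases and Traf6. The signal runs to the IkB kinases and NF-kB and to the MAP kinases and AP-1. In macrophages IL-33 is known for amplifying alternative activation, the programme that IL-4 and IL-13 drive through Il4ra and Stat6 and that includes the arginase Arg1.

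Defining macrophage genes were abundant in all 6 libraries. Csf1r, the M-CSF receptor, read 3586, 3311 and 3643 CPM without cytokine and 3363, 3900.0 and 4102 CPM with IL-33. Adgre1, which encodes F4/80, read 1535, 1658 and 1664 CPM without cytokine and 2040.0, 2246 and 2262 CPM with IL-33. The myeloid factor Spi1 read 508, 494 and 494 CPM without cytokine and 516, 515 and 501 CPM with IL-33. CPM is the library-size-scaled count (TMM) used throughout. The 11 macrophage markers summed to between 28464 and 31376 CPM without cytokine and to between 37510.4 and 41472 CPM with IL-33. Of these 11, 6 were called higher and 2 lower at an edgeR adjusted p under 0.05. In bulk RNA, fewer cells of a type and less RNA per cell cannot be told apart.

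Markers of other cell types moved too. Among all tested genes, 18.5% were called higher and 16.9% lower. Of the 13 tested neutrophil markers, 10 were called higher, and the list's summed level went from 124 to 136 CPM without cytokine to 383 to 529.7 CPM with IL-33. The granule enzyme gene Elane read 0.738, 0.882 and 1.03 CPM without cytokine and 2.01, 1.94 and 2.06 CPM with IL-33, and Ly6g had 0, 0 and 0 counts without cytokine and 1, 1 and 0 with IL-33. Of the 10 tested monocyte markers, 8 were called higher, with sums of 282 to 335 CPM against 787 to 1267 CPM. Mast cell and basophil markers summed to 7.42 to 11.9 CPM without cytokine and 3.32 to 7.11 CPM with IL-33, with Mcpt4 and Tpsb2 at 0 in the 6 libraries. Of that list's 6 tested members 3 were called higher and 1 lower. With a filter of at least 1 CPM in 3 libraries the rises numbered 1. The members given next had few counts and rose, against the direction of the list's sum. Among the members called higher, Ms4a2, a chain of the IgE receptor, had 1, 2 and 0 counts without cytokine and 11, 12 and 15 with IL-33, and Mcpt8, a basophil protease, had 0, 3 and 3 and 17, 20 and 8. Of 11 tested dendritic cell markers 6 were called higher and 1 lower (2 without IL-33 replicate 1), with sums of 31.7 to 35.2 CPM without cytokine and 32.0 to 38.0 CPM with IL-33. Eosinophil markers summed to 9.62 to 14.6 CPM without cytokine and 24.6 to 27.8 CPM with IL-33, with 1 of 3 tested members called higher, Ccr3. Stromal markers summed to 2.08 to 2.60 CPM without cytokine and 4.86 to 6.68 CPM with IL-33. Of 7 tested members 2 were called higher (1 with the filter of at least 1 CPM in 3 libraries), and Pdgfra and Lum were at 0. Lymphocyte markers had 0 of 11 tested members called higher (1 without unstimulated replicate 2 and 1 by limma-voom) and 4 called lower. The part of such cells in the results below was not tested.

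The promoters of 3 neighbouring CXC chemokine genes that rose carry the same 9 bases close to the start of transcription, and they are shown here with those of 2 raised cytokine genes. These 5 were picked because they hold a match, after the results were seen. The searched word was GGANTTNCC on either strand, a core of the kappaB sites that NF-kB binds, and its matches are in capitals. Each sequence is the RefSeq promoter in build GRCm38.p6, from 250 bases before to 50 after the annotated start, written 5′ to 3′ on the gene's own strand: Cxcl1 at chr5:90890995-90891294 (plus strand), Cxcl2 at chr5:90903649-90903948 (plus), Cxcl3 at chr5:90785851-90786150 (plus), Il6 at chr5:30012864-30013163 (plus) and Il13 at chr11:53634653-53634952 (minus).
Cxcl1: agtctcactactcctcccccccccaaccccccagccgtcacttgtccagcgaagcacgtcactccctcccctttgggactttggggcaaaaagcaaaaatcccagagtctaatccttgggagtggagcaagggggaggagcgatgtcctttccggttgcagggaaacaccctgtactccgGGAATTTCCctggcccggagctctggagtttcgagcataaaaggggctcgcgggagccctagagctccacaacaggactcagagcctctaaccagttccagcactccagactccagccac
Cxcl2: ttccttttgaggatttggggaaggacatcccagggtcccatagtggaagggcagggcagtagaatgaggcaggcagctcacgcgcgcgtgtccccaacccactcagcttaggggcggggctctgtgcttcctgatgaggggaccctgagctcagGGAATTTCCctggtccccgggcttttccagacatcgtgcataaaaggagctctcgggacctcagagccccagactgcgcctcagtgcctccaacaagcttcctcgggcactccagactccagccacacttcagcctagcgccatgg
Cxcl3: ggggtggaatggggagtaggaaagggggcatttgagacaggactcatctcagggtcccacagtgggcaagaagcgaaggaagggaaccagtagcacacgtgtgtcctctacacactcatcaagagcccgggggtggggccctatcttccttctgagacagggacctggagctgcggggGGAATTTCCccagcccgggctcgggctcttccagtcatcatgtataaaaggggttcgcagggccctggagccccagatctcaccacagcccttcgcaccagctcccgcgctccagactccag
Il6: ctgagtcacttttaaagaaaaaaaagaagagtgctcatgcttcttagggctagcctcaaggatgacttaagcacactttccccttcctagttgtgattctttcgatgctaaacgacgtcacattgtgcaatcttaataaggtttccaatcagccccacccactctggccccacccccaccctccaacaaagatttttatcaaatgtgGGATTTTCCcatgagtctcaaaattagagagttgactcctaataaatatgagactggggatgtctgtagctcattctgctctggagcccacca
Il13: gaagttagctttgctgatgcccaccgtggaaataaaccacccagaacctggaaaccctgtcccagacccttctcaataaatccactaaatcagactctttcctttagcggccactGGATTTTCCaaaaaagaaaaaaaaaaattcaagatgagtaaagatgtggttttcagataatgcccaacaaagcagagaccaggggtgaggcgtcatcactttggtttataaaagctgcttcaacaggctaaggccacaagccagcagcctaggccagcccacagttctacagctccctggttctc
The match began 70 bases before the start in Cxcl1, 96 in Cxcl2, 72 in Cxcl3, 43 in Il6 and 135 in Il13. Saa3, the strongly raised acute-phase gene, had 0 matches in its window. The word was found in 21 of 194 genes raised at least 4-fold that had a promoter in the table (10.8%), in 5 of 62 lowered at least 4-fold (8.06%) and in 499 of all 9913 tested genes with a promoter (5.03%). It was in 3.95% of all 32851 promoters of that length. The AP-1 word TGANTCA was found in 18.0%, 8.06% and 6.43% of the same gene groups. Of 6 words searched, 4 were added after the first results: TTGCNNAA, part of C/EBP sites, was in 21.6%, 12.9% and 10.4%, TTCNNNGAA, the STAT site, in 11.3%, 12.9% and 8.38%, AANNGAAA, part of the interferon-stimulated response element, in 32.0%, 19.4% and 21.6%, and TATAAA, searched on the gene's strand, in 12.4%, 14.5% and 5.34%. These are descriptions of letters in 1 window, with no test, and a match is not a measured binding site.

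IL-33 changed 2676 genes upward (18.5% of those tested) and 2446 downward (16.9%) at an edgeR adjusted p under 0.05. Counts of calls in the gene lists are to be read beside these shares, and no list was tested against them. Most changes were small: the median called gene rose 1.34-fold or fell 1.33-fold. The large changes were mostly rises. At least 2-fold differences numbered 606 higher and 367 lower, at least 4-fold differences 273 and 90, at least 16-fold differences 79 and 7, and at least 100-fold differences 26 and 0. These are fitted folds, which depend on a small added prior count where the unstimulated libraries had few counts. The largest rises include genes at 0 counts in all 3 unstimulated libraries, such as Marco, Nrg1 and Il13. Such genes passed the filter on low counts only through other groups, the IL-33 group among them. The same holds for genes at 1 to 3 counts over the 3 unstimulated libraries, such as Serpinb2, Edn1, Ptx3, Ccl17, Cxcl3, Mmp10, Il6 and Rnase2a. Genes of both kinds had almost no room to be called lower. Where they belong to a list, they are part of its count of rises. Their part in the excess of large rises was not tested. The 273 genes raised at least 4-fold together held 0.152% to 0.197% of all counts without cytokine and 1.03% to 1.29% with IL-33. The 3 IL-33 values lay wholly above the 3 unstimulated ones for 3487 genes (24.1%) and wholly below them for 3223 genes (22.3%). The plot of the response by level shows this asymmetry.

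**Figure D1:**
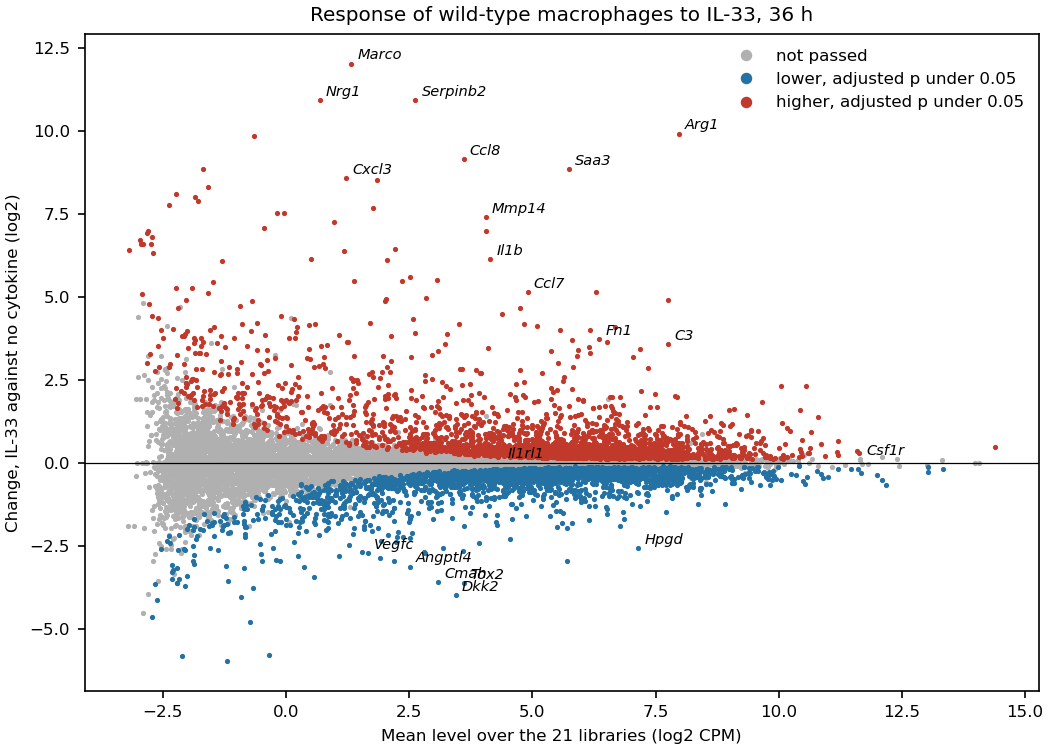
Change under IL-33 (vertical axis, log2) against mean level over the 21 libraries (horizontal axis, log2 CPM) for the 14473 tested genes, 1 point per gene, red for the 2676 called higher and blue for the 2446 called lower. At 32-fold and beyond lie 48 of the called rises and 3 of the called falls. Those rises include genes at 0 counts in all 3 unstimulated libraries. Il1rl1 and Csf1r lie at log2 changes of 0.01 and 0.11.

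The receptor and its proximal signalling genes were measured first, because 1 of the genotypes compared below is labelled as lacking the receptor. Il1rl1 read 14.6, 17.3 and 15.1 CPM without cytokine and 15.8, 16.9 and 14.6 CPM with IL-33. The 2 groups overlapped (log2 change 0.01 ± 0.14 SE, edgeR adjusted p = 0.97). It also read 17.4, 20.4 and 14.5 CPM in the unstimulated ST2KO-labelled libraries and 14.6, 18.7 and 14.2 CPM in those given IL-33, so gene-level counts did not check that label. Of the 21 tested genes of the list, 6 rose and 2 fell. The rises were Traf1 (1.04), an adaptor of TNF receptors, Irak3 (0.85), the inhibitory IRAK family member, Myd88 (0.43), Map3k8 (0.37), Traf3 (0.22) and Ikbkg (0.20), with log2 changes in parentheses. The falls were Irak2 (-0.55) and Tab1 (-0.21). Il1rap, Irak1, Irak4, Traf2, Traf6, Map3k7, Tab2, Tab3, Tollip, Sigirr, Chuk and Ikbkb did not pass, at log2 changes from -0.40 for Sigirr to 0.13 for Traf2. Sigirr did pass with the replicate block (-0.43, adjusted p = 0.0475) and without IL-33 replicate 1 (-0.65, 0.0121), and Irak1 (-0.14, 0.02) and Traf6 (-0.17, 0.0168) passed under upper-quartile scaling. The Traf3 call, at an edgeR adjusted p of 0.0176, was lost under upper-quartile scaling (0.17) and without unstimulated replicate 1 or 3 or without IL-33 replicate 1 or 3, at 0.18 to 0.20 on the log2 scale, and the Tab1 call on leaving out unstimulated replicate 2, IL-33 replicate 1 or IL-33 replicate 2, at -0.21 to -0.16.

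Several feedback inhibitors of NF-kB signalling rose. Of 17 tested subunits, IkB proteins and feedback genes, 11 rose and 1 fell. Bcl3, an atypical IkB protein, read 18.7, 18.9 and 18.3 CPM without cytokine and 46.5, 52.9 and 61.9 CPM with IL-33 (2.88-fold higher, log2 change 1.53 ± 0.17 SE, edgeR adjusted p = 1.61e-07). Zc3h12a, the mRNA-degrading enzyme Regnase-1, was 2.05-fold higher, log2 change 1.04 ± 0.06 SE, edgeR adjusted p = 2.08e-11. Tnfaip3, which encodes the deubiquitinase A20, was 2.03-fold higher, log2 change 1.02 ± 0.09 SE, edgeR adjusted p = 6.91e-09. Nfkbia (0.58), Nfkb2 (0.54) and Relb (0.51) rose less, Nfkb1 (-0.01) and Rela (-0.02) did not pass, and Tnip1 (-0.39) fell. The MAPK phosphatases split: Dusp5 (1.37) and Dusp1 (0.86) rose while Dusp2 (-1.20) fell.

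In the SOCS family, whose members inhibit cytokine receptor signalling, 4 of 8 tested genes rose and 1 fell. Cish, an inhibitor of STAT5 signalling, read 0.137, 0.156 and 0.125 CPM without cytokine and 7.14, 5.82 and 6.14 CPM with IL-33 (44.8-fold higher, log2 change 5.48 ± 0.31 SE, edgeR adjusted p = 4.77e-12). Socs2, an inhibitor of growth hormone signalling, read 0.437, 0.623 and 0.276 CPM without cytokine and 16, 10.9 and 15.1 CPM with IL-33 (31.3-fold higher, log2 change 4.97 ± 0.30 SE, edgeR adjusted p = 1.21e-11). Socs3, an inhibitor of IL-6 receptor signalling, read 4.15, 3.42 and 3.33 CPM without cytokine and 67.5, 97.7 and 114 CPM with IL-33 (25.6-fold higher, log2 change 4.68 ± 0.37 SE, edgeR adjusted p = 1.25e-09). All 3 genes had every IL-33 library above every unstimulated one. Socs1, the inhibitor of JAK kinases, was 7.07-fold higher, log2 change 2.82 ± 0.21 SE, edgeR adjusted p = 5.34e-10. Socs5 (-0.18) fell, at an edgeR adjusted p of 0.0324 that no longer passed when unstimulated replicate 1 (-0.15), IL-33 replicate 1 (-0.16) or IL-33 replicate 3 (-0.16) was left out and with no filter on low counts (-0.18, adjusted p = 0.0759).

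Most chemokine genes rose. Of 13 tested CC chemokine genes 11 rose and 0 fell, with a median log2 change of 2.09 beside a median of 0.00 over all tested genes. Of 10 tested CXC genes 6 rose and 1 fell. Ccl8, a ligand of monocyte and T cell receptors, read 0.137, 0.0778 and 0.100 CPM without cytokine and 42.0, 68.2 and 73.8 CPM with IL-33 (571-fold higher, log2 change 9.16 ± 0.36 SE, edgeR adjusted p = 2.38e-14). Ccl7, a ligand of Ccr2, read 2.79, 3.71 and 1.93 CPM without cytokine and 123, 96.2 and 78.5 CPM with IL-33 (35.4-fold higher, log2 change 5.15 ± 0.31 SE, edgeR adjusted p = 1.84e-11). Ccl2, the main Ccr2 ligand, read 10.2, 23.7 and 12.2 CPM without cytokine and 199, 170.4 and 152 CPM with IL-33 (11.3-fold higher, log2 change 3.50 ± 0.31 SE, edgeR adjusted p = 7.92e-09). The IL-33 libraries lay above the unstimulated ones for these 3 genes. Ccl6, another ligand of Ccr1, read 359, 438 and 370.1 CPM without cytokine and 1877, 1884 and 2006 CPM with IL-33 (4.95-fold higher, log2 change 2.31 ± 0.11 SE, edgeR adjusted p = 3.72e-13). Ccl12 (6.12) rose as well, and the type 2 chemokines Ccl24 (2.09) and Ccl22 (1.97) also rose. Ccl17, a Ccr4 ligand, had 1 count in the 3 unstimulated libraries and 248 with IL-33, 250.2-fold higher by counts (95% counting interval 44.5 to 9920.5; edgeR adjusted p = 1.65e-07). Ccl3 (0.21) did not pass, though it did with no filter (adjusted p = 0.00842).

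Among the neutrophil-attracting CXC genes, Cxcl3 went from 2 counts in all 3 unstimulated libraries to 887, 447-fold higher by counts (95% counting interval 123 to 3699.9; edgeR adjusted p = 8.15e-09). Cxcl1 read 0.383, 0.701 and 0.551 CPM without cytokine and 7.0, 6.12 and 5.91 CPM with IL-33 (11.6-fold higher, log2 change 3.53 ± 0.33 SE, edgeR adjusted p = 1.55e-08) and Cxcl2 read 2.51, 2.39 and 2.13 CPM without cytokine and 26.8, 22.9 and 22.2 CPM with IL-33 (10.2-fold higher, log2 change 3.35 ± 0.19 SE, edgeR adjusted p = 6.36e-12). The platelet-type chemokines Pf4 and Ppbp, which also sit in the megakaryocyte marker list, were 10.5-fold and 7.27-fold higher, and that list's summed level was 14.8 to 23.1 CPM without cytokine and 165 to 218 CPM with IL-33, with Hbb-bs at 0. The interferon-inducible Cxcl9 (0.66) and Cxcl10 (0.74) did not pass, though Cxcl10 did with the replicate block (0.74, adjusted p = 0.00959), by limma-voom (0.0232), in a fit of only the libraries compared (0.000507) and with no filter (8.03e-06). Cxcl12, which retains cells in marrow, was 3.47-fold lower, log2 change -1.80 ± 0.61 SE, edgeR adjusted p = 0.0248, a call that failed on leaving out unstimulated replicate 2 (-1.70), IL-33 replicate 1 (-1.60) or IL-33 replicate 2 (-1.43).

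Chemokine receptors changed in both directions, 6 of 10 tested upward and 4 downward. Ccr1, a receptor for several CC ligands above, read 10.5, 19.6 and 12.8 CPM without cytokine and 122, 133 and 146 CPM with IL-33 (9.35-fold higher, log2 change 3.23 ± 0.24 SE, edgeR adjusted p = 4.47e-10). Ccr7 (2.24), the lymph node homing receptor, Ccr3 (2.21) and Cxcr2 (1.79) rose. Cxcr3 read 6.29, 7.08 and 7.44 CPM without cytokine and 2.41, 2.33 and 3.38 CPM with IL-33 (2.57-fold lower, log2 change -1.36 ± 0.17 SE, edgeR adjusted p = 1.1e-06), and Cxcr4 (-0.83) and Cx3cr1 (-0.83) fell. The plot of chemokines and receptors gives every library.

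**Figure D2:**
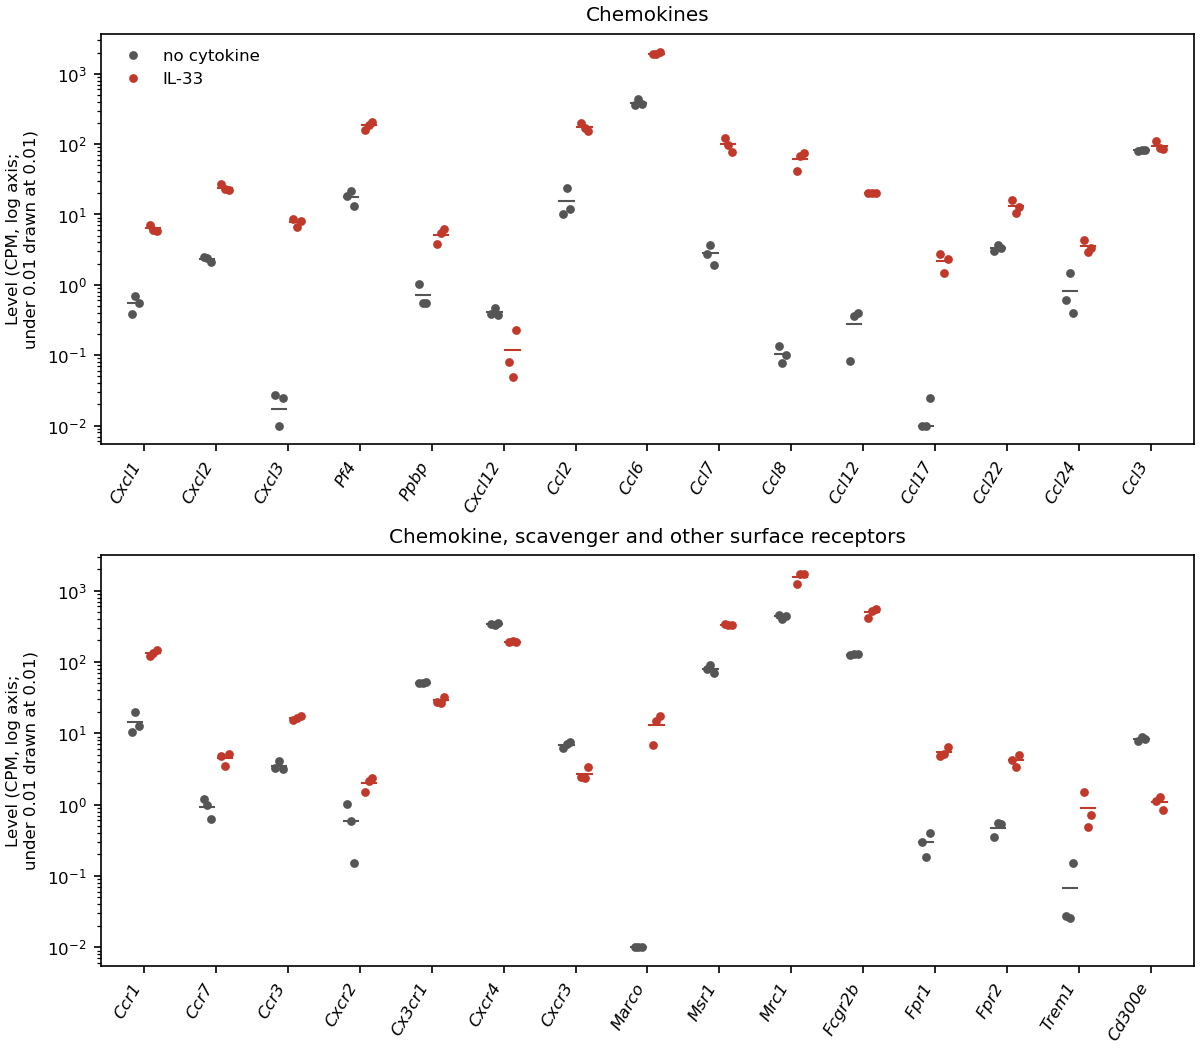
Levels (CPM, log axis, values under 0.01 drawn at 0.01) of 15 chemokine genes (upper panel) and 15 surface receptor genes (lower panel) in the 3 unstimulated (grey) and 3 IL-33 (red) wild-type libraries, with bars at the means. Ccl17 and Cxcl3 start near the lower end of the axis, Ccl6 lies near its top in both groups, and Cxcl12, Cx3cr1, Cxcr4, Cxcr3 and Cd300e run downward.

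Cytokine genes followed. Il1b read 0.875, 1.17 and 0.952 CPM without cytokine and 69.5, 65.8 and 75.6 CPM with IL-33 (70.2-fold higher, log2 change 6.13 ± 0.45 SE, edgeR adjusted p = 4.38e-10). Il1a had 5 counts without cytokine and 807 with IL-33 (153-fold higher, log2 change 7.25 ± 0.83 SE, edgeR adjusted p = 3.08e-07). The decoy receptor gene Il1r2 and the receptor antagonist gene Il1rn, both inhibitors of IL-1, were 7.65-fold and 3.79-fold higher, and the signalling receptor gene Il1r1 (2.34) rose. Casp4 (0.95), an inflammatory caspase, rose while Nlrp3 (-0.21) fell, the latter call being lost without unstimulated replicate 2 (-0.19), and Casp1 (0.10) did not pass. Il6 had 1, 1 and 0 counts without cytokine and 27, 17 and 15 with IL-33, 29.8-fold higher by counts (95% counting interval 7.88 to 251; edgeR adjusted p = 0.00251). Tnf was 2.69-fold higher, log2 change 1.43 ± 0.19 SE, edgeR adjusted p = 2.5e-06, and Il10 (0.39) and Il12b (-0.55) did not pass.

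Several cytokine and growth factor genes were at 0 counts in all 3 unstimulated libraries. Such genes passed the filter on low counts only through other groups, the IL-33 group among them, so no count of calls among them is given. For these genes the fold is a lower bound against a floor of 3 counts per library. Il13, whose product acts through the type 2 receptor chain Il4ra, had 107, 113 and 109 counts with IL-33, at least 36.9-fold higher. Nrg1, an ERBB receptor ligand, had 158, 282 and 262 counts, at least 78.6-fold higher. Csf3, which drives neutrophil production, had 28, 34 and 35 counts, at least 10.9-fold higher. The IL-33 libraries lay close together for Il13 and Csf3, while Nrg1 was lower in the first library than in the other two. Csf2 (9, 11 and 10 counts), Il5 (16, 18 and 4) and Il9 (18, 11 and 14), genes better known from type 2 lymphocytes and mast cells, had few counts with IL-33. DESeq2 did not call Csf3 (adjusted p = 0.081), Il5 (0.0704) or Il9 (0.114), which edgeR called at 0.000567, 0.0043 and 0.00142. The M-CSF gene Csf1 (1.08) and the shared receptor chain gene Csf2rb (1.63) rose, and the M-CSF receptor gene Csf1r (0.11) did not pass, except without IL-33 replicate 1 (0.18, adjusted p = 0.0212).

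Of 21 tested growth and angiogenic factor genes 11 rose and 5 fell. Edn1, the vasoconstrictor endothelin, had 1 count without cytokine and 277 with IL-33, 279-fold higher by counts (95% counting interval 49.7 to 11076; edgeR adjusted p = 3.87e-08). Placental growth factor Pgf was 18.5-fold higher, log2 change 4.21 ± 0.68 SE, edgeR adjusted p = 3.15e-05, and the activin subunit gene Inhba (3.75) and Igf1 (1.44) rose. Vegfc, a lymphatic growth factor, read 4.95, 3.94 and 5.84 CPM without cytokine and 0.740, 1.01 and 0.450 CPM with IL-33 (6.61-fold lower, log2 change -2.73 ± 0.29 SE, edgeR adjusted p = 1.4e-07). The IL-33 libraries of Vegfc all lay below the unstimulated ones, and Vegfa (0.18) did not pass, though it did with the replicate block (0.19, adjusted p = 0.0391) and with no filter (0.0178).

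Of 20 tested matrix metalloproteinase and inhibitor genes 14 rose and 1 fell. Mmp14, a membrane-bound collagenase, read 0.137, 0.597 and 0.326 CPM without cytokine and 37.5, 55.5 and 89.4 CPM with IL-33 (169-fold higher, log2 change 7.40 ± 0.49 SE, edgeR adjusted p = 6.1e-11). Mmp10 had 2 counts without cytokine and 158 with IL-33, 79.7-fold higher by counts (95% counting interval 21.7 to 664; edgeR adjusted p = 7.68e-06). The neutrophil collagenase gene Mmp8 (4.01), Mmp13 (3.71), Mmp9 (3.36) and Mmp12 (2.31) rose, and so did the inhibitor Timp1 (2.57), while Timp2 (-0.05) did not pass. The 1 fall, Mmp11 (-1.10), was lost without unstimulated replicate 1 (-1.0) or 2 (-1.06), without IL-33 replicate 2 (-1.03) or 3 (-0.93) and with no filter (-1.10, adjusted p = 0.0683). Fibronectin Fn1 was higher as well (13.2-fold higher, log2 change 3.73 ± 0.46 SE, edgeR adjusted p = 1.1e-06), and the proteoglycan Vcan was 18.1-fold higher.

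Serpinb2, an inhibitor of plasminogen activators, had 0, 0 and 1 counts without cytokine and 847, 900 and 874 with IL-33, 2644-fold higher by counts (95% counting interval 474 to 104469; edgeR adjusted p = 6.65e-14). Serpinb2 passed the filter on low counts only through other groups, the IL-33 group among them. In its list of 16 tested plasminogen and coagulation genes, 12 rose, Serpinb2 among them, and 1 fell. The clot-crosslinking factor gene F13a1 read 41.5, 57.9 and 42.9 CPM without cytokine and 341, 560.5 and 622 CPM with IL-33 (10.7-fold higher, log2 change 3.42 ± 0.26 SE, edgeR adjusted p = 6.57e-10). Tissue factor F3 was 8.34-fold, F10 7.22-fold and F7 3.62-fold higher. Thbd (-0.42), the anticoagulant thrombomodulin, fell and the urokinase gene Plau (0.04) did not pass.

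Complement genes rose in 10 of 14 tested cases and fell in 2. C3, the central component, read 51.0, 55.3 and 60.3 CPM without cytokine and 535, 670.1 and 783 CPM with IL-33 (11.9-fold higher, log2 change 3.58 ± 0.22 SE, edgeR adjusted p = 1.96e-11). The 3 IL-33 libraries were far above the 3 unstimulated ones. Cd55, which protects cells from complement, went from 7 counts without cytokine to 88 (12.1-fold higher, log2 change 3.60 ± 0.78 SE, edgeR adjusted p = 0.000845). C4b (2.50), Cfp (1.11) and C1qa (0.99) rose, and C4b shares 22.7% of its 75-base words with other annotated transcripts, so its counts are uncertain. The anaphylatoxin receptor genes C5ar1 (-0.18) and C5ar2 (-0.46) fell.

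Acute-phase and iron genes rose in 15 of 21 tested cases and fell in 5. Saa3, a macrophage acute-phase protein, read 0.465, 0.830 and 0.426 CPM without cytokine and 126, 257 and 414 CPM with IL-33 (461-fold higher, log2 change 8.85 ± 0.82 SE, edgeR adjusted p = 1.44e-08). The 3 IL-33 values of Saa3 were all above the unstimulated ones but differed widely among themselves. Haptoglobin Hp was 45.3-fold higher, and Ptx3, a soluble pattern recognition protein, went from 1 count to 180, 182-fold higher by counts (95% counting interval 32.2 to 7211; edgeR adjusted p = 2.26e-06). Lcn2 (1.91), which binds iron carriers of bacteria, and Hmox1 (0.71), which breaks down haem, rose. The transferrin receptor gene Tfrc (1.97) and ceruloplasmin Cp (3.89) rose while the iron exporter Slc40a1 (2.94-fold lower, log2 change -1.55 ± 0.11 SE, edgeR adjusted p = 2.88e-10) and ferritin heavy chain Fth1 (-0.17) fell.

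Surface receptors for particles and microbes changed in both directions. Marco, a scavenger receptor for bacteria, had 0 counts in every unstimulated library and 263, 608 and 618 with IL-33, at least 167-fold higher. Like Il13, Marco passed the filter on low counts only through other groups, the IL-33 group among them. Of its list of 19 tested scavenger and efferocytosis receptors 6 rose, Marco among them, and 6 fell. At 0 unstimulated counts Marco could not have been called lower. Olr1 (4.32) and Msr1 (2.06), receptors for modified lipoproteins, rose, while Axl (-1.47), a receptor for dying cells, and Cd163 (-0.89), the haemoglobin scavenger, fell and Mertk (0.12) did not pass. Of 20 tested C-type lectins 15 rose and 3 fell, among them the mannose receptor Mrc1 (1.82), Mgl2 (4.90), Clec4n (4.13) and Clec4e (2.46) upward and the beta-glucan receptor Clec7a (-0.41) downward. The inhibitory Fc receptor gene Fcgr2b read 126, 128 and 127 CPM without cytokine and 411, 524 and 559 CPM with IL-33 (3.93-fold higher, log2 change 1.97 ± 0.08 SE, edgeR adjusted p = 4.76e-14), and the activating Fcgr1 (1.11) rose. Fpr1 and Fpr2, receptors for bacterial formyl peptides, were 18.1-fold and 8.77-fold higher. Tlr4 (0.84) rose and Tlr9 (-0.68) fell. Trem1, an amplifier of inflammation, was 12.4-fold higher, Trem2 (-0.66) fell, and Cd300e read 7.82, 8.90 and 8.44 CPM without cytokine and 1.11, 1.28 and 0.844 CPM with IL-33 (7.73-fold lower, log2 change -2.95 ± 0.22 SE, edgeR adjusted p = 4.76e-10). The inhibitory lectin Siglece (2.57) rose while Cd33 (-1.32) fell.

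Genes of alternative activation rose in 24 of 27 tested cases and fell in 0. Arg1 read 0.273, 0.519 and 0.351 CPM without cytokine and 319.9, 362 and 439 CPM with IL-33 (969-fold higher, log2 change 9.92 ± 0.28 SE, edgeR adjusted p = 1.45e-16). The receptor chains Il4ra and Il13ra1 were 4.51-fold and 2.40-fold higher. Retnla, a resistin-like secreted protein, had 0, 1 and 2 counts without cytokine and 36, 18 and 3 with IL-33, 19.2-fold higher by counts (95% counting interval 6.24 to 95.7; edgeR adjusted p = 0.00229); limma-voom did not call it (adjusted p = 0.0553). The chitinase-like gene Chil3 (0.76) and the ribonuclease gene Ear2 (4.17) also rose, and Ear2 shares 23.4% of its words with other transcripts. Rnase2a, of the same family, went from 3 counts to 117, 39.3-fold higher by counts (95% counting interval 13.1 to 194; edgeR adjusted p = 3.24e-05).

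The same libraries were set against wild-type cells given IL-4. IL-33 left 2772 genes higher (19.2%) and 3000 genes lower (20.7%) than IL-4 did; this comparison shares the IL-33 libraries with the one above. Among the 27 type 2 genes, IL-4 gave the higher level for 16 and IL-33 for 8. Arg1 read 1357, 1548 and 1092 CPM with IL-4 (IL-33 against IL-4, log2 -1.83 ± 0.16 SE, edgeR adjusted p = 3.23e-09), and Retnla read 739, 658 and 742 CPM (log2 -10.47 ± 0.25 SE, edgeR adjusted p = 2.3e-18). The exceptions included Il4ra, at 55.4, 61.5 and 51.0 CPM with IL-4 and 289, 371 and 419.7 CPM with IL-33 (log2 2.69 ± 0.11 SE, edgeR adjusted p = 1.83e-14), and Mrc1 (log2 0.75 ± 0.12 SE, edgeR adjusted p = 1.62e-05). Il13 had 0, 0 and 0 counts with IL-4. Of 14 tested complement genes 13 were higher with IL-33 than with IL-4, C3 among them (log2 2.0 ± 0.20 SE, edgeR adjusted p = 3.62e-08), and of 25 tested interferon-stimulated genes 24 were. Those 25 had a median log2 difference of 1.58 against IL-4. Their median change under IL-33 against no cytokine was -0.12, with 2 called higher and 2 lower.

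**Figure D3:**
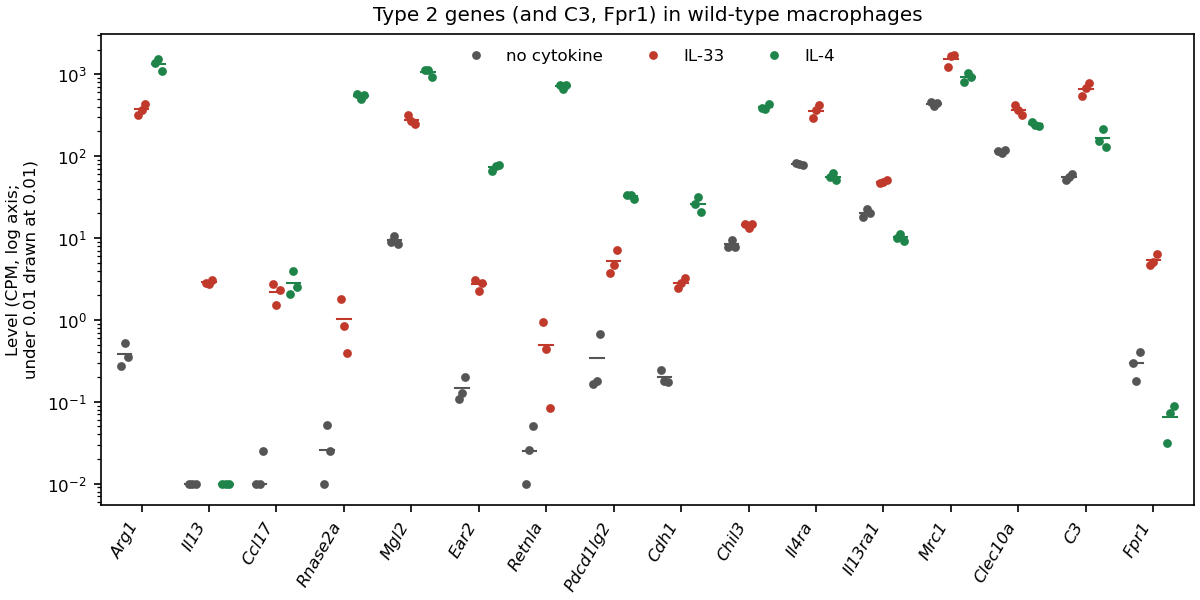
Levels (CPM, log axis, values under 0.01 drawn at 0.01) of 14 type 2 genes, C3 and Fpr1 in the 3 unstimulated (grey), 3 IL-33 (red) and 3 IL-4 (green) wild-type libraries, with bars at the means. Arg1, Mgl2, Ear2 and Retnla are highest with IL-4, while Il13, Il4ra, Il13ra1, Mrc1, C3 and Fpr1 are highest with IL-33.

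Genes of arginine, proline and polyamine metabolism rose in 13 of 27 tested cases and fell in 2. The cationic amino acid transporter gene Slc7a2 was 16.1-fold, the mitochondrial arginase gene Arg2 10.8-fold and the arginine-making enzyme gene Ass1 7.15-fold higher. Ass1 shares 32.6% of its words with other transcripts. Nos2, the inducible nitric oxide synthase, read 0.0820, 0 and 0.125 CPM without cytokine and 0.370, 0.712 and 1.29 CPM with IL-33 (10.9-fold higher, log2 change 3.45 ± 0.85 SE, edgeR adjusted p = 0.00302). Gatm (1.01), of creatine synthesis, rose and the polyamine-acetylating enzyme gene Sat1 (-0.36) fell.

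Of 25 tested prostaglandin and leukotriene genes 13 rose and 5 fell. Ptgs2, the inducible cyclooxygenase, read 0.957, 0.311 and 0.576 CPM without cytokine and 7.90, 6.98 and 7.85 CPM with IL-33 (12.3-fold higher, log2 change 3.63 ± 0.42 SE, edgeR adjusted p = 3.42e-07). Ptges, which makes prostaglandin E2, was 5.99-fold and the constitutive cyclooxygenase gene Ptgs1 4.43-fold higher. Hpgd, which inactivates prostaglandins, read 269.7, 245 and 290.5 CPM without cytokine and 59.8, 40.5 and 36.2 CPM with IL-33 (5.89-fold lower, log2 change -2.56 ± 0.20 SE, edgeR adjusted p = 1.28e-09). Hpgds (-0.66), Ltc4s (-1.12) and Alox5 (-0.77) fell.

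All 20 tested sterol synthesis genes rose, from 0.94 for Idi1 and 0.91 for Sqle to 0.16 for Ebp on the log2 scale, with Hmgcs1 (0.67) between them. Of 22 tested glycolysis and lactate genes 18 rose and 0 fell, among them the glucose transporter Slc2a1 (1.40), Pfkfb3 (1.29), Ldha (1.05) and the lactate exporter Slc16a3 (1.40). Gapdh is uncertain: it shares 22.6% of its words with other transcripts, read 3.06, 3.50 and 3.63 CPM without cytokine and 6.19, 52.1 and 7.77 CPM with IL-33, with 1 IL-33 library far above the rest, and its call was lost without any 1 of the unstimulated libraries or without IL-33 replicate 2 (log2 1.02). Slc13a3, a dicarboxylate transporter, was 127-fold higher, log2 change 6.99 ± 0.32 SE, edgeR adjusted p = 1.47e-13, and Irg1, which makes itaconate, was 22.2-fold higher. Egln3 (1.88) and Hif1a (0.55) of the hypoxia response, Sod2 (1.72), Nqo1 (1.42) and Gclm (1.26) of oxidant defence and the chaperones Pdia4 (1.16) and Hspa5 (0.45) rose. Of 20 tested fatty acid oxidation genes 7 rose and 2 fell, and of 33 genes of the citric acid cycle and pyruvate entry 14 rose and 3 fell. The fatty acid oxidation rises numbered 4 without unstimulated replicate 1. Of 49 tested proteasome subunits 31 rose and 0 fell, a count that was 20 without unstimulated replicate 3 and 18 without IL-33 replicate 1. Of 17 proton pump subunits 1 rose and 7 fell, Atp6v1a (-0.51) among the falls. Those falls numbered 4 without unstimulated replicate 3, and the rises numbered 0 when any 1 of the 6 libraries was left out and 3 with the replicate block. Tfeb (-0.70), a regulator of lysosome genes, fell as Ctsl (1.58) rose.

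**Figure D4:**
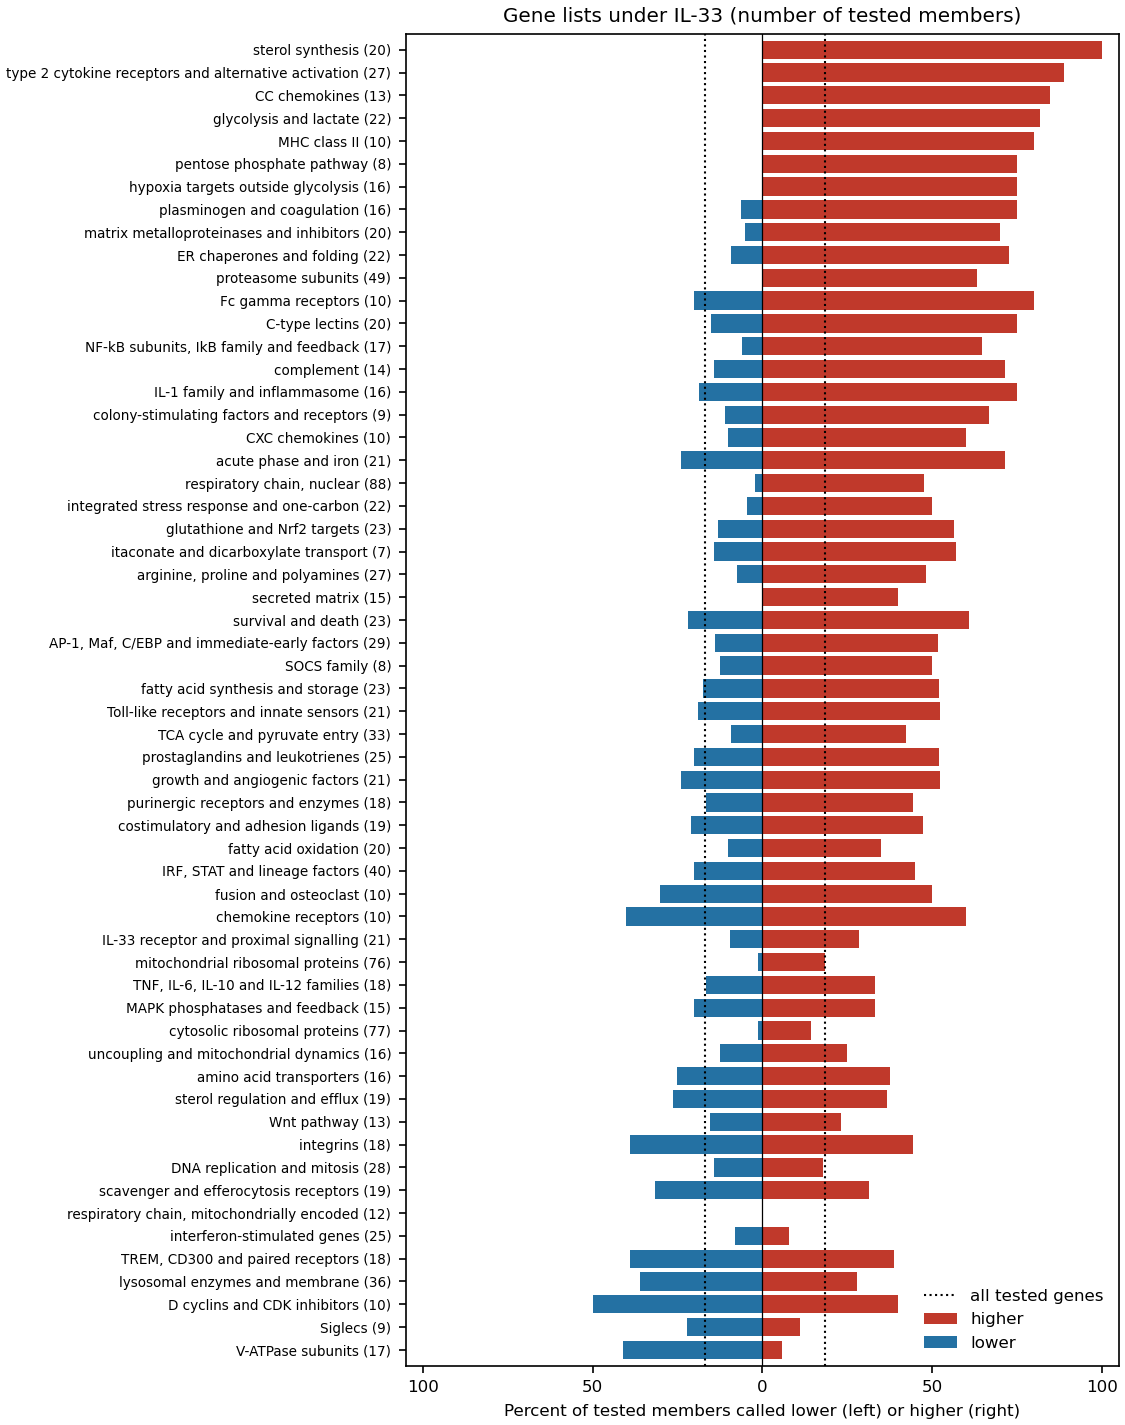
Percent of the tested members of each gene list called lower (blue, to the left) and higher (red, to the right) under IL-33, with the number of tested members in parentheses and dotted lines at the 16.9% and 18.5% of all tested genes. Sterol synthesis has all 20 members higher, the 12 mitochondrially encoded respiratory chain genes have none called (4 lower without IL-33 replicate 1 and 5 with no filter on low counts), and the proton pump list has 7 lower and 1 higher (4 and 0 without unstimulated replicate 3).

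Of 25 tested interferon-stimulated genes 2 rose, Gbp2 (1.38) and Gbp5 (1.37), and 2 fell, counts that depended on the fit. They were 4 and 7 with the replicate number as a block, 5 and 10 with no filter on low counts, and 4 and 1 without unstimulated replicate 1. Mx1 (-0.08), Isg15 (0.30) and Irf7 (-0.45) did not pass, but Irf7 was called lower with the block (adjusted p = 0.00599) and with no filter (1.09e-11), and Isg15 higher with no filter (0.00216). The fall of Ifit3 (-1.04) was lost without unstimulated replicate 1 (-0.85), and Ifit3 shares 41.1% of its words with other transcripts. Class II genes rose modestly, 8 of 10 tested, with Cd74 (0.93) and H2-Ab1 (0.59). The inhibitory ligands Pdcd1lg2 (3.90) and Cd274 (1.64) rose. Of 28 tested replication and mitosis genes 5 rose and 4 fell, near the 18.5% and 16.9% of all tested genes. The rises numbered 1 without unstimulated replicate 1 or IL-33 replicate 1, 3 without unstimulated replicate 3 or IL-33 replicate 2 and 8 with no filter, and the falls 2 without unstimulated replicate 1. Among cyclins and inhibitors, Cdkn1c (-2.66), a CDK inhibitor, and Ccnd1 (-0.84) fell as Ccnd2 (0.72) rose.

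Transcription factor genes changed in both directions. Vdr (2.38), Nfil3 (2.21), Ahr (1.46), Klf4 (1.30), Fosl2 (1.64), Cebpb (0.93) and Irf4 (0.63) rose, and the immediate-early gene Ier3 (2.70) rose. Pparg, a lipid-sensing nuclear receptor, Id3 (-1.76), Irf8 (-0.46) and Tox2 (-3.62) fell, Pparg at a log2 change of -1.14. Among protein-coding genes at a mean over the 21 libraries of at least 2 log2 CPM whose groups did not overlap, 1 of the largest falls was that of the Wnt antagonist gene Dkk2, which read 15.4, 15.7 and 15.7 CPM without cytokine and 0.793, 1.45 and 0.675 CPM with IL-33 (15.8-fold lower, log2 change -3.98 ± 0.18 SE, edgeR adjusted p = 1.86e-13). All IL-33 libraries lay below the unstimulated ones. Cmah (-3.59), which hydroxylates sialic acid, Angptl4 (-3.13), an inhibitor of lipoprotein lipase, Samd4 (-2.69), Ndrg2 (-2.58), Dio2 (-2.42), which activates thyroid hormone, Sox4 (-2.38), Gprc5b (-2.31), Shisa9 (-2.28) and Zbtb16 (-2.23) were also among the 15 largest falls within those limits, as were Tox2, Cd300e, Cdkn1c and Hpgd. Among the 15 largest rises within the same limits, those not yet named were the Ras activator gene Rasgrp1, at 0.246, 0.0778 and 0.150 CPM without cytokine and 13, 13.8 and 15.1 CPM with IL-33 (87.3-fold higher, log2 change 6.45 ± 0.31 SE, edgeR adjusted p = 2.71e-13), and H2-M2 (5.59), a nonclassical class I gene.

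The response was compared with that of the other genotypes, whose IL-33 and unstimulated libraries were their own. In ST2KO-labelled cells edgeR called 0 genes higher and 0 lower (0%), with 507 genes at an unadjusted p under 0.05 (3.5% of those tested), and DESeq2 and limma-voom also called 0. Without the filter on low counts edgeR called 70, all of them also in the filtered table. The 273 genes raised at least 4-fold in wild type had a median log2 change of 3.19 there and 0.05 in ST2KO-labelled cells, and the 90 genes lowered at least 4-fold medians of -2.65 and 0.00. Single genes varied more. Over the 15 largest rises named above, log2 changes in ST2KO-labelled cells ran from -0.15 for Ccl7 to 3.52 for Saa3. Il1b was at 1.92 and Rnase2a at 1.18, and none of them passed. The difference of the responses, tested as an interaction, was called with the wild-type log2 change above the ST2KO-labelled one for 1745 genes (12.1%) and below it for 1539 (10.6%). With the replicate number as a block the count in ST2KO-labelled cells was also 0, and the difference was called for 3545 genes. Arg1 read 0.370, 0.887 and 0.274 CPM without and 0.713, 1.16 and 0.352 CPM with IL-33 in ST2KO-labelled cells (difference of responses, log2 9.40 ± 0.76 SE, edgeR adjusted p = 5.8e-09). Ccl7 read 5.28, 7.10 and 4.90 and 5.49, 7.40 and 2.55 CPM (log2 5.30 ± 0.44 SE, edgeR adjusted p = 8.23e-09). Every ST2KO-labelled library lay below every wild-type IL-33 library for both genes.

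In floxed-labelled cells the same 273 and 90 genes had median log2 changes of 2.39 and -1.88. These genes were picked by their wild-type change, so smaller medians here do not by themselves show a weaker response. The difference of the responses was called for 15 of the 273 (5.49%) and 1 of the 90 (1.11%). Gata3 read 0.223, 0.0715 and 0.444 CPM without and 0.377, 0.272 and 0.400 CPM with IL-33 in these libraries and 0.109, 0.156 and 0.175 CPM without cytokine and 0.185, 0.246 and 0.141 CPM with IL-33 in the wild-type ones, so gene-level counts did not check this label either. The wild-type log2 change was called above the floxed-labelled one for 98 genes (0.677%) and below it for 78 (0.539%), 176 in all. That total moved to between 52 and 273 when any 1 of the 12 libraries was left out other than wild-type unstimulated replicate 2 or floxed-labelled IL-33 replicate 2, and it was 384 by DESeq2 and 555 without the filter. Dkk2 changed by -3.98 in wild type and -2.50 in floxed-labelled cells on the log2 scale (difference log2 -1.48 ± 0.25 SE, edgeR adjusted p = 0.00284). Ptgs1 changed by 2.15 and 1.20 (difference log2 0.94 ± 0.11 SE, edgeR adjusted p = 6.74e-05). Il1rl1 was 0.01 and -1.18 (difference log2 1.19 ± 0.21 SE, edgeR adjusted p = 0.00405), at 13.7, 16.8 and 13.6 CPM without and 7.67, 5.48 and 6.18 CPM with IL-33 in floxed-labelled libraries. Xist, expressed from the inactive X chromosome of female cells, averaged 308.9 and 342.4 CPM in the unstimulated and IL-33 floxed-labelled libraries and 0 and 0.00881 CPM in the wild-type ones, so genotype and sex cannot be told apart here.

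**Figure D5:**
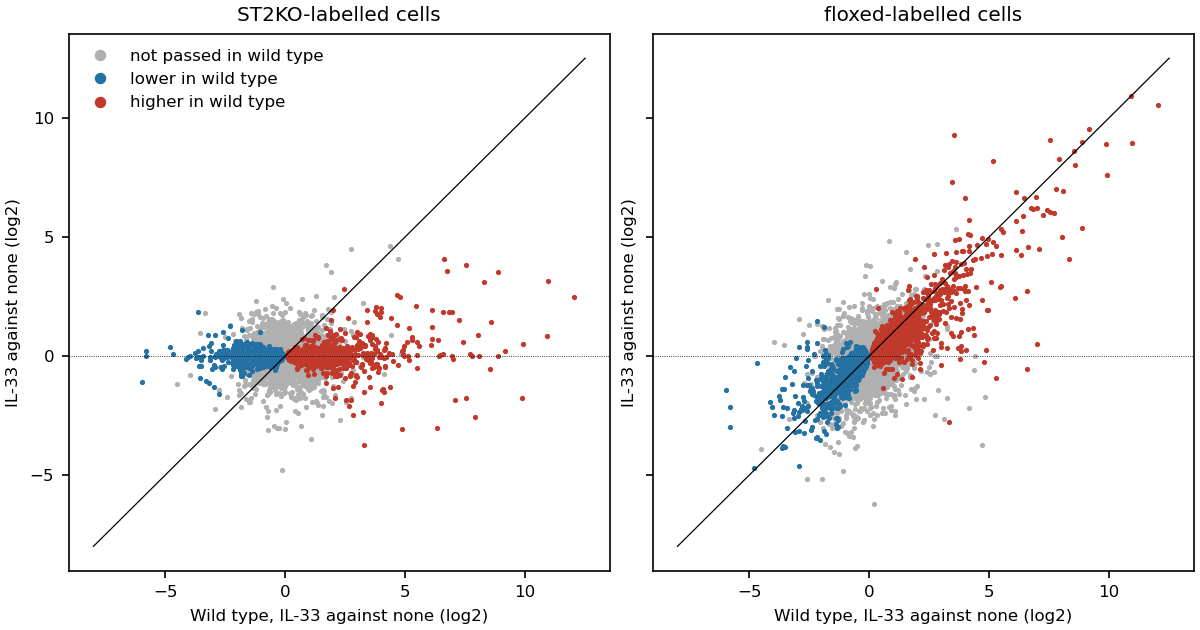
IL-33 against no cytokine (log2) in ST2KO-labelled (left) and floxed-labelled (right) cells on the vertical axis against the wild-type change on the horizontal axis, 1 point per tested gene, coloured by the wild-type call, with the line of equality. Genes raised at least 4-fold in wild type have medians of 0.05 on the left and 2.39 on the right. These genes were picked by their wild-type change, which by itself can lower the median in other cells.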

How the data were processed

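The authors deposited 1 table of whole-number read counts per gene for 21 libraries of NovaSeq paired-end reads of 150 bases; per the submitters' processing notes the tools were HISAT2 2.0.5, HTSeq 0.6.1 and DESeq2 1.22.2 and the build GRCm38 (mm10). Strand setting and annotation release are not given in the sources used here. Of 47069 genes, 46574 matched GENCODE M21 by ID.

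Groups came from the labels. Counts were fitted with edgeR 4.0.16 (R 4.3.3): filterByExpr over 7 groups, TMM, quasi-likelihood tests over all 21 libraries, Benjamini-Hochberg adjustment over 14473 genes and a threshold of 0.05. Fitted fold changes use a prior count of 0.125. The 6 libraries held 35995216 to 41682400 counts. Counting intervals are exact binomial intervals, and they and the floor of 3 counts cover counting error only. In simulated counts for the IL-33 comparison (14160 genes run), 97 of 109 genes changed 2-fold (89%) were recovered. For 4-fold changes it was 90 of 91 (98.9%), with 5 false calls. The data held 5122 called genes, far more than were changed in the simulation, so these rates may not carry over.

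Genes named are the receptor and signalling list, up to 8 members per list with the largest calls each way, and the 15 largest called protein-coding rises and falls without overlap at 2 or more log2 CPM. Some genes that this rule names are not reported here. Members and lists were chosen with earlier results of these data known. Xist, Ly6g, Gata3 and Ebp and the promoters shown were chosen after their values were seen. Shared sequence was counted over 75-base words of M21 transcripts. Alternatives were DESeq2 1.42.0, limma-voom (limma 3.58.1), 2 other scalings, 2 other filters, fewer libraries, a replicate block and each library left out. The wild-type replicate numbers come from the sample titles; samples with the same number did not deviate together in every pair (r = 0.115, -0.0339 and 0.142), so no pairing was used. The ST2KO-labelled numbers did pair their libraries (r = 0.218, 0.457 and 0.373), the floxed-labelled ones did not in every pair (0.0373, 0.163 and 0.0382).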

Additional observations from a re-analysis of the deposited data

Results flagged for a closer look

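The test of the difference itself called 3284 genes for wild-type against ST2KO-labelled cells and 176 genes for wild-type against floxed-labelled cells. For the genes named, the differences in parentheses are of signed log2 changes, not of the size of the response. The wild-type change lay above the floxed-labelled one for Tmem26 (2.05), Ear2 (2.03), Clec4b1 (1.92), Ccr3 (1.43), Il1rl1 (1.19), Slc7a2 (1.08), Ptgs1 (0.94) and Tfrc (0.94). That was also so for Gatm (0.93), P4ha2 (0.80), Mgl2 (0.73), Fcgr2b (0.58), C1qa (0.41), Igf1 (0.35) and Adgre1 (0.32). The wild-type change lay below the floxed-labelled one for Dkk2 (-1.48), Clec4n (-0.98) and Spp1 (-0.78). Dkk2 fell in both, by -3.98 in wild type and by -2.5 in floxed-labelled cells. Il1rl1 changed by 0.01 in wild type and by -1.18 in floxed-labelled cells. Clec4b1 changed by 0.56 in wild type and -1.36 in floxed-labelled cells, and Tmem26 by 2.79 and 0.75. The wild-type Clec4b1 call was lost under limma-voom, under upper-quartile scaling, with only the 6 libraries in the fit and without unstimulated replicate 1 or 3 or IL-33 replicate 3.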

How the results depend on the processing

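The counts of genes higher and lower under IL-33, against no cytokine and against IL-4, stayed within 1.5 times their values under every scaling, filter, test and left-out library tried. Leaving out a library gave 2224 to 2417 higher, 2105 to 2304 lower, 544 to 609 at least 2-fold higher, 322 to 393 at least 2-fold lower, 2488 to 2728 higher than under IL-4, 2441 to 2807 lower than under IL-4, 0 to 0 in ST2KO-labelled cells, 2733 to 3410 for the ST2KO-labelled difference and 52 to 273 for the floxed-labelled difference. With no filter the ST2KO-labelled count was 70 and the floxed-labelled difference 555; DESeq2 gave 384 for the latter. The cause was not tested. Upper-quartile scaling moved the median of all genes to -0.048 and the share of rises among calls from 52.2% to 42.8%. With a replicate block the counts were 2778 higher and 2553 lower, and the floxed-labelled difference was 389. Of the genes named, none changed direction while called. Genes with few counts are limited by depth.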
